A study of Mus musculus with 10 samples.

Results

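Fatty acid oxidation was examined in the deposited transcript table through 32 genes that carry an acyl chain from activation to acetyl-CoA. The genes were chosen by name for their known role, and the table was summed over the listed transcripts of each gene symbol. All 32 were found among the 11777 gene symbols of the table. RNA had been sequenced from the myocardium of C57BL/6 mice, with 5 libraries in each group. Libraries 217, 227, 231, 240 and 241 bear the label NPRA-/-, whereas 228, 230, 242, 243 and 255 bear the label NPRA+/+. NPRA is the natriuretic peptide receptor A, encoded by Npr1. The first group is described as carrying a deletion of it limited to the myocardium, and the second is labelled wild type. How the deletion was driven, the ages of the mice and the part of the heart taken were not stated. The values were taken as FPKM, fragments scaled to transcript length and library size, so levels of different genes can be compared per length.

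The adult heart draws most of its ATP from long-chain fatty acids. A fatty acid is first joined to coenzyme A, then passed into the mitochondrial matrix as an acylcarnitine, and then shortened by repeated cycles of dehydrogenation, hydration, dehydrogenation and thiolysis. Each cycle hands electrons to the respiratory chain through the electron transfer flavoprotein and NADH. Malonyl-CoA, made by the acetyl-CoA carboxylases and removed by malonyl-CoA decarboxylase, blocks the carnitine palmitoyltransferase at the entry. Peroxisomes hold a parallel pathway for very long and branched chains.

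The libraries carry limits of their own. Npr1, with 1 listed transcript, lay between 4.12 and 5.20 FPKM in the NPRA-/- libraries and between 4.30 and 5.05 FPKM in the NPRA+/+ libraries, so its mRNA did not separate the labels, and whether its reads cover the deleted stretch is not known. The groups are named here by label alone. All 14 cardiomyocyte markers were in the table, with a summed level of 29700 to 34700 FPKM in the NPRA-/- group and 30260 to 32450 FPKM in the NPRA+/+ group. Atrial light chain Myl7 ran from 0 FPKM in libraries 241 and 255 to 140.1 FPKM in library 217, and varied widely within both groups. The brown fat gene Ucp1 was at 5.89 FPKM in library 255, at 0.090 FPKM in library 230 and listed at 0 in the other 8. Fibroblast markers summed to 611 FPKM in library 230 and 549 FPKM in library 243, against 409 to 520 FPKM in the other 8.

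The members were among the abundant mRNAs of this tissue. Of the 32, 22 had a mean of 50 FPKM or more, 16 of 100 FPKM or more, and 16 were within the 500 most abundant gene symbols. Together they made up 1.71% to 1.96% of the FPKM of nuclear genes in each library. Acot13 stood highest with a mean of 876 FPKM over all 10 libraries, followed by Acadm (612 FPKM), Acadl (591 FPKM) and Acaa2 (448.5 FPKM). At the low end were Cpt1a, Acaa1a, Ehhadh, Acaca and Acad10, each under 10 FPKM. Acad10 was the 1 member that stayed under the floor of the test, a mean of 1 FPKM in at least 1 group, with 0.122 to 0.845 FPKM.

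**Figure D1:**
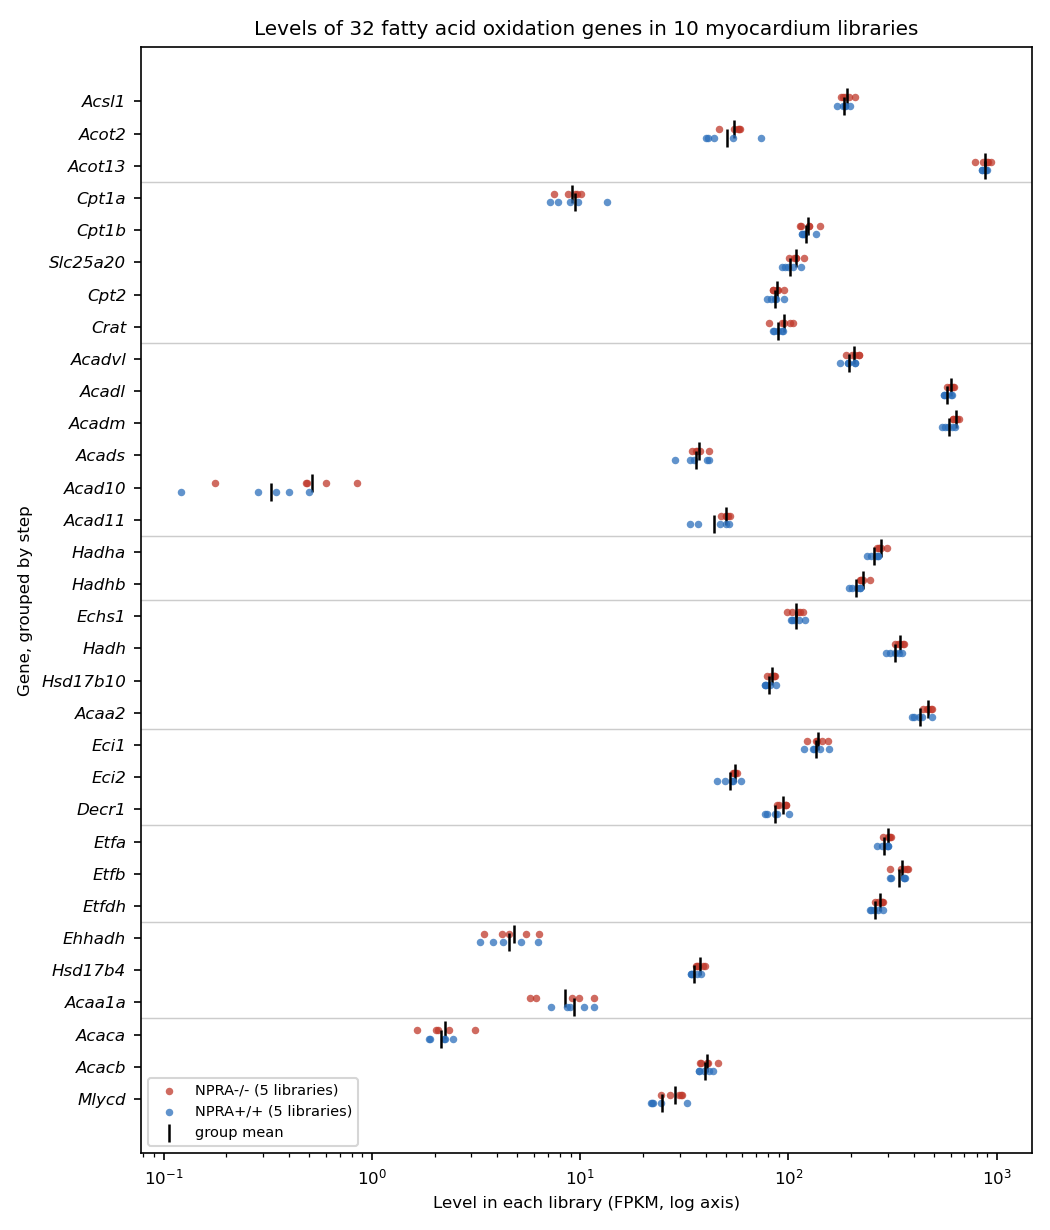
Level of each of the 32 genes in FPKM on a log axis, with 1 point per library, NPRA-/- above NPRA+/+ in each row, and a black tick at the group mean. The genes span from Acad10, under 1 FPKM, to Acot13, near 876 FPKM, and the points of both groups overlap in every row.

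Between the genotypes, no member passed the test over all genes. By limma with Benjamini-Hochberg adjustment, 0 of the 31 tested members were called, with adjusted p from 0.893 to 0.998, against 1 of 10764 genes in all (0.00929%). At an unadjusted p under 0.05 there were 2 members, Acadm and Hadhb, against 5.52% of all genes in either direction, 1.38% with NPRA-/- higher and 4.13% with NPRA-/- lower. In 0 members did the libraries of the groups separate without overlap, where 0.242% of all genes did so with NPRA-/- higher and 0.836% with NPRA-/- lower. With 5 libraries a group, 24 of the 31 members had a 95% interval of the log2 difference that lay within 0.3 on either side of 0, and 30 within 0.5, so larger differences than that lay outside the intervals of most members.

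The differences were small and mostly of one sign. Of the 31 members, 29 had a higher mean in the NPRA-/- libraries, against 39.4% of all genes tested. Their median log2 difference was 0.065, against -0.029 over all genes. Among the 1041 genes with a mean of 50 FPKM or more, 52.6% were higher and the median was 0.0025, while all 22 members at that level were higher, with a median of 0.079. Under other scalings, 27 members were higher with every library set to the same sum (35.2% of all genes), 29 with the nuclear sums set equal (39.2%), 28 after quantile normalization (49.7%) and 30 after median-of-ratios scaling (50.6%). In a tissue sample, fewer cells of a type and less RNA per cell cannot be told apart, and 12 of the 14 cardiomyocyte markers also had a higher mean in the NPRA-/- libraries (median log2 difference 0.037). All 5 listed erythroid markers were higher there too (median log2 difference 0.15), with sums of 946 to 1438 FPKM in NPRA-/- and 768 to 1392 FPKM in NPRA+/+. All 10 fibroblast, all 10 endothelial and all 10 macrophage markers had a lower mean there (medians -0.24, -0.13 and -0.17). So had all 7 smooth muscle and all 6 tested adipocyte markers (medians -0.20 and -0.57). The adipocyte markers Adipoq, Cfd, Cidec and Pck1 were near the floor, with group means of 0.064 to 2.34 FPKM. Plin4 and Thrsp, with group means of 30.1 to 33.1 FPKM, had log2 differences of -0.057 and -0.11. The summed macrophage markers lay at 222 to 242 FPKM in NPRA-/- and 246 to 284 FPKM in NPRA+/+, without overlap. Of all single genes, 0.836% separated in that direction. At an unadjusted p under 0.05, and lower in NPRA-/-, were 5 of 10 fibroblast, 5 of 10 macrophage and 3 of 10 endothelial markers. So were 1 of 7 smooth muscle and 1 of 6 adipocyte markers, against 4.13% of all genes. At that p and higher was 1 of 14 cardiomyocyte markers, against 1.38% of all genes. Of these lists, 0 markers were called by limma. The part of these cell types in the members' differences was not tested.

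The count of higher members depended on 2 NPRA+/+ libraries. Library 230 was the lowest of all 10 in 11 members and library 243 in 11 others, so that 22 of the 32 members had their minimum in one of them. Without both libraries, a comparison chosen after seeing the data, 19 of 31 members were higher, against 41.1% of all genes, and the median log2 difference was 0.021. As both were picked for their low values, a fall in the count was built into the choice. These are also the libraries with the highest sums of fibroblast markers. Their Acta1, the skeletal alpha-actin, was at 228 and 440.3 FPKM against 72.3 to 147 FPKM in the other 8. The skeletal muscle marker Tnni2 did not follow, at 2.329 and 2.555 FPKM, with its highest value in library 255 (6.3 FPKM). Mylpf, near the floor, was at 1.576 and 1.091 FPKM, with its highest value in library 227 (1.603 FPKM). Myh1, Myh2, Myh4, Tnnt3 and Atp2a1 of that marker list were not among the listed genes. Nppa, from the atrial marker list, was also highest in libraries 230 and 243, at 447.7 and 804.5 FPKM. It was at 235.6 to 425.7 FPKM in the other 8. Of the other listed atrial markers, Dkk3 was highest in library 230, and Myl7, Myl4, Sln, Stard10 and Tbx5 were highest in neither. The part of the fibroblast markers, Acta1 or Nppa in the low values was not tested. Library 255 of the same group went the other way: it was the highest of all 10 in 9 members, and without it 30 of 31 members were higher, against 41.3% of all genes, with a median of 0.104.

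**Figure D2:**
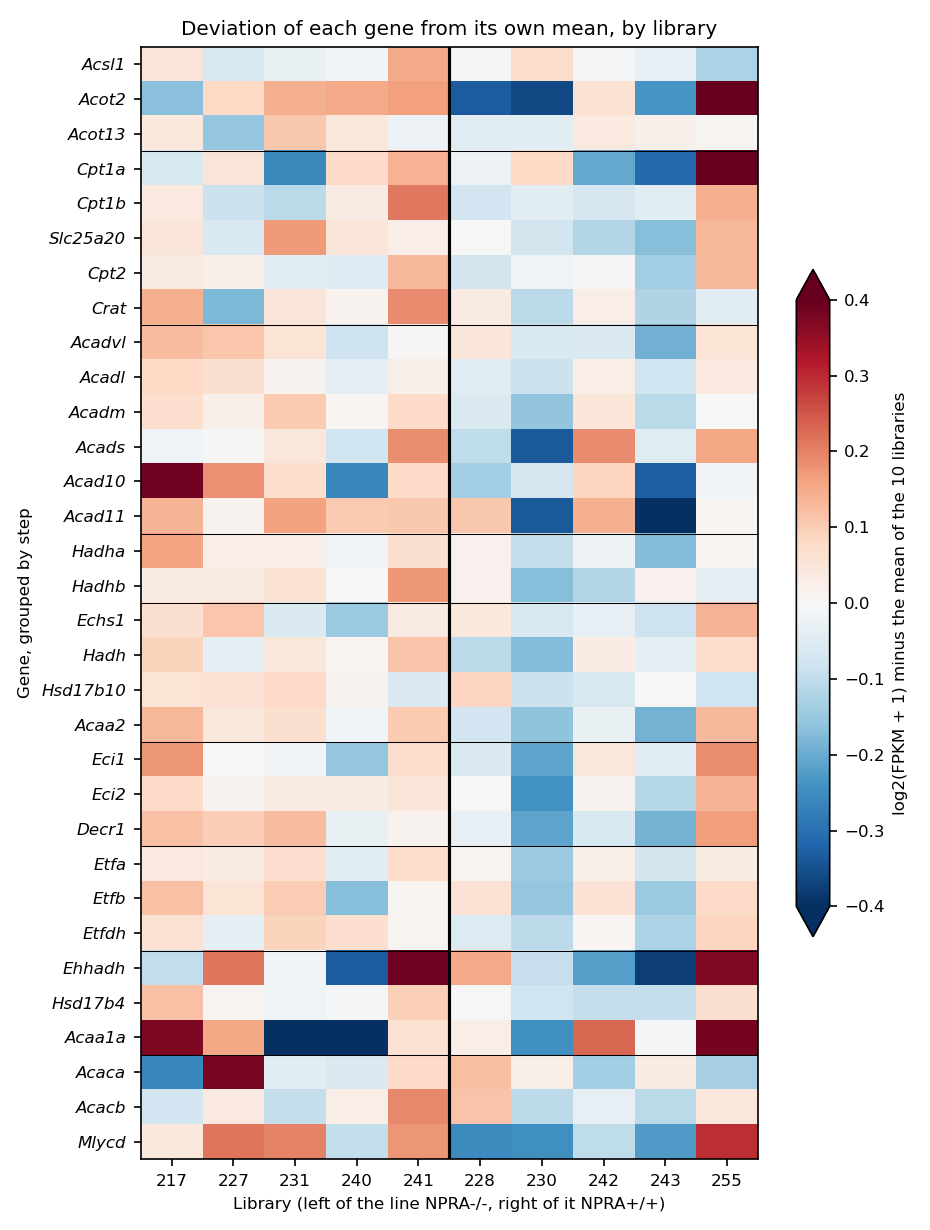
Deviation of each gene, as log2(FPKM + 1), from its own mean over the 10 libraries, with NPRA-/- libraries left of the black line and NPRA+/+ right of it; colours are capped at 0.4. Libraries 230 and 243 are blue in most rows, and library 255 is red in most, most deeply for Acot2, Cpt1a, Ehhadh, Acaa1a and Mlycd.

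Promoter windows of the members were searched for letters that regulators of this pathway are known to bind. Windows of 250 bases before to 50 after the start, from RefSeq (GRCm38.p6), were at hand for 26 of the 32 members, 27 windows in all. For Acaca, the bases before that start, chr11:84195188-84195437, lie downstream of the GENCODE vM21 starts of both listed transcripts (84173122 and 84179831). Its window is therefore not the promoter of the transcripts measured here. Both strands were searched, and motifs may overlap. The core bound by NRF1, GCATGCGC, was in the windows of Acadm, Etfa, Etfdh and Acad10, 4 of 27 (14.8%), against 5.08% of the 11775 windows of all listed genes. The nuclear receptor half-site AGGTCA was in 5 of 27 windows (18.5%, against 12.3%), those of Acacb, Acadm, Acadvl, Cpt1a and Echs1. CCAAT was in 14 of 27 windows (51.9%, against 37.4%) and the ETS core CCGGAAG in 3 of 27 (11.1%, against 17.3%). The direct repeat of that half-site with 1 base between, and the estrogen-related receptor element TCAAGGTCA, were in 0 of 27, against 0.0255% and 0.263%. A match is a description, not a bound site.

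The 250 bases before the start are shown for Acadm, the member with the smallest p, and for Etfa, an abundant member, as 2 windows with the NRF1 core. Capitals mark GCATGCGC or its reverse complement GCGCATGC. Both genes lie on the minus strand, at chr3:153944644-153944893 and chr9:55512244-55512493, and are printed 5′ to 3′ in the direction of transcription.
Acadm: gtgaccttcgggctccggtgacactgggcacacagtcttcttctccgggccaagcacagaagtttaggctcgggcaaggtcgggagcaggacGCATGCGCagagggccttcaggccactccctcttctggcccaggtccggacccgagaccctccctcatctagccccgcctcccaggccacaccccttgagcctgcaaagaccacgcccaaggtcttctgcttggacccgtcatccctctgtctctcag
Etfa: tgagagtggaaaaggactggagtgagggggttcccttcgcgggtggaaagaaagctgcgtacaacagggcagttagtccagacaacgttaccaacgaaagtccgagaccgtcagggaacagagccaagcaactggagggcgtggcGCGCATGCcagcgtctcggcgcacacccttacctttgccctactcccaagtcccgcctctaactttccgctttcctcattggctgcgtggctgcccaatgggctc

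Summed by step, the mRNAs of every group were a little higher in the NPRA-/- libraries, with 0 members called in any step. The acyl-CoA dehydrogenases summed to 1533 ± 41.3 against 1444 ± 75.8 FPKM, and all 5 tested members of that step had a higher mean. Trifunctional protein mRNAs summed to 506 ± 17.96 against 469 ± 18.8 FPKM, and the enzymes of medium and short chains to 1005 ± 34.1 against 941 ± 61.8 FPKM. A smaller relative gap was seen for the carnitine shuttle, at 425 ± 23.4 against 407 ± 24.3 FPKM with 4 of 5 members higher. The gap was also smaller for activation and thioester hydrolysis together, at 1125 ± 62.1 against 1110 ± 26.9 FPKM. Most of that sum was the thioesterase Acot13 (879 and 874 FPKM), while the activating enzyme Acsl1 was at 191 and 185 FPKM. Malonyl-CoA control summed to 71.4 ± 4.97 against 66.4 ± 5.86 FPKM and the peroxisomal members to 50.8 ± 4.53 against 49.3 ± 4.20 FPKM. The genes for unsaturated chains were at 288.5 ± 15.3 against 274.8 ± 27.8 FPKM, and those of electron transfer at 927 ± 36.3 against 890 ± 56.1 FPKM. All these steps hold different numbers of genes, and differences between steps were not tested.

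Activation and thioester hydrolysis opened the pathway. Values per library are given from here on in the order 217, 227, 231, 240 and 241 for NPRA-/- and 228, 230, 242, 243 and 255 for NPRA+/+. Acsl1, the main long-chain acyl-CoA synthetase of heart, was at 191 ± 11.6 FPKM in the NPRA-/- libraries and 185 ± 9.28 FPKM in the NPRA+/+ libraries (means with their SD over 5 libraries, as for all such pairs). Among the members it alone had its lowest level in library 255, at 172 FPKM. Acot13, a thioesterase of mitochondria, was level between the groups at 879 ± 59.8 and 874 ± 23.4 FPKM, with a log2 difference of 0.0061 (95% interval -0.10 to 0.11).

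Acot2, the mitochondrial thioesterase that releases long-chain fatty acids from coenzyme A, varied more. Its level was 46.2, 55.1, 57.6, 57.9 and 58.5 FPKM in the NPRA-/- libraries and 41.1, 40.4, 54.4, 44.1 and 74.2 FPKM in the NPRA+/+ libraries. The NPRA+/+ libraries thus lay both below and above the whole NPRA-/- group. The log2 difference came to 0.15 (SE 0.15, limma adjusted p = 0.928) and went from 0.075 without library 230 and 0.081 without library 228 to 0.29 without library 255. Reads of Acot2 could be shared with its close paralog Acot1, which was at 2.90 to 6.82 FPKM with its highest value also in library 255.

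The carnitine shuttle moves the activated chain across the inner membrane. Cpt1b, the muscle isoform of the malonyl-CoA-sensitive palmitoyltransferase, was the dominant entry enzyme. It was at 125.7, 115, 113, 125 and 141.5 FPKM in the NPRA-/- libraries and at 116, 119, 117, 119 and 135 FPKM in the NPRA+/+ libraries (log2 difference 0.035, 95% interval -0.11 to 0.18). Cpt1a, the isoform typical of liver, was at 8.70, 9.49, 7.46, 9.67 and 10.1 FPKM and at 8.97, 9.71, 7.79, 7.16 and 13.5 FPKM. Library 255 was the highest of its group for both isoforms and the highest of all 10 for Cpt1a. Cpt1b exceeded Cpt1a by a factor of 10.02 (library 255) to 16.6 (library 243), with geometric means of 13.7 and 13.1 in NPRA-/- and NPRA+/+ (two-sided exact permutation p = 0.690).

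The carrier and the inner enzyme followed the same narrow range. Slc25a20, the carnitine-acylcarnitine translocase, was at 109 ± 6.32 and 102 ± 8.56 FPKM. Cpt2, which returns the chain to coenzyme A in the matrix, was at 88.3 ± 4.54 and 86.1 ± 6.12 FPKM. Crat, the acetyltransferase that buffers acetyl-CoA as acetylcarnitine, was at 94.9 ± 9.18 and 89.1 ± 4.54 FPKM. None of the 3 had a log2 difference above 0.093.

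The acyl-CoA dehydrogenases, which start each cycle, differ by chain length. Acadvl takes very long chains and works at the inner membrane, Acadl long, Acadm medium and Acads short chains. In FPKM the long and medium forms were the most abundant, at means of 591 and 612, against 202 for Acadvl and 36.6 for Acads. Acadm (chromosome 3, 153922357 to 153944632, minus strand, GRCm38/mm10) had the smallest unadjusted p of all members. Its level was 640.3, 619, 657, 614 and 643 FPKM in the NPRA-/- libraries and 586, 548, 632, 567 and 611 FPKM in the NPRA+/+ libraries. All 5 NPRA-/- libraries were above the NPRA+/+ mean, and 1 NPRA+/+ library, 242, was within their range. The log2 difference was 0.11 (SE 0.044, limma unadjusted p = 0.031, adjusted p = 0.893).

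Neighbours in chain length differed by less. Acadl was at 603 ± 19.4 against 580 ± 23.8 FPKM and varied only 1.12-fold between the highest and the lowest of the 10 libraries, the narrowest of the members. Acadvl was at 207 ± 12.0 against 196 ± 13.5 FPKM. Acads was at 37.2 ± 2.68 against 36.0 ± 5.33 FPKM, with library 230 lowest at 28.6 FPKM. The ratio of Acadvl to Acads sets the form for very long chains against that for short chains and leaves out Acadl. It ran from 4.64 to 6.74 in single libraries, with geometric means of 5.57 and 5.48 (two-sided exact permutation p = 0.833).

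Acad11, a dehydrogenase of longer and hydroxylated chains, had the second largest difference. It was at 51.5, 47.2, 52.4, 50.3 and 50.4 FPKM in the NPRA-/- libraries and at 50.4, 36.8, 51.7, 33.9 and 47.1 FPKM in the NPRA+/+ libraries. Libraries 230 and 243 lay more than 10 FPKM below the lowest NPRA-/- library, and the other 3 NPRA+/+ libraries were at or near the NPRA-/- range. The log2 difference of 0.21 (SE 0.11, limma adjusted p = 0.906) fell to 0.12 without library 243. Without libraries 230 and 243 together, picked for their low values, it was 0.018. In GENCODE vM21 the gene overlaps other transcription units on its own strand that were not analysed here. The same holds for other members, among them Cpt1b, Acadl, Etfb and Etfdh.

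The trifunctional protein carries out the last 3 reactions on long chains. Hadha encodes its alpha subunit, with the hydratase and the hydroxyacyl-CoA dehydrogenase, and Hadhb its beta subunit, the thiolase. Both genes lie head to head on chromosome 5, with RefSeq start sites 273 bases apart, and the stretch between these sites is shown because both genes start at or within its ends. GENCODE vM21, whose transcripts carry the levels given here, starts the 1 listed Hadha transcript at 30155162, inside this stretch, so that most of the printed bases lie within Hadha in that annotation. The stretch is printed on the plus strand, in the direction of Hadhb, from RefSeq (GRCm38.p6, chr5:30154981-30155252):
Hadha-Hadhb interval: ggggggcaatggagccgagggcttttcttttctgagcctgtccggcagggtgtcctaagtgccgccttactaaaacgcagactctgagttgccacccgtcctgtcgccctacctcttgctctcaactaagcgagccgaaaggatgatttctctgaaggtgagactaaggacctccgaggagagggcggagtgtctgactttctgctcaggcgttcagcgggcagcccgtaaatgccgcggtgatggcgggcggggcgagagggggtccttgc

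Hadha was at 298, 272.5, 272.5, 265 and 279.7 FPKM in the NPRA-/- libraries and at 271, 250.4, 263, 237 and 269 FPKM in the NPRA+/+ libraries. Hadhb was at 224, 224, 228, 219 and 247 FPKM and at 222, 195, 202, 222 and 213 FPKM. In both genes all 5 NPRA-/- libraries were above the NPRA+/+ mean and the groups still overlapped. The log2 differences were 0.11 (SE 0.049, limma adjusted p = 0.906) for Hadha and 0.12 (SE 0.051, limma adjusted p = 0.893) for Hadhb. The ratio of Hadha to Hadhb ran from 1.07 in library 243 to 1.33 in library 217 and had geometric means of 1.215 and 1.225 in the groups (two-sided exact permutation p = 0.849). Its spread of 1.25-fold was about as wide as that of either gene alone (1.26-fold and 1.27-fold).

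Medium and short chains finish the cycle through separate matrix enzymes. Echs1, the short-chain hydratase, was level at 109 ± 7.78 and 109 ± 6.98 FPKM (log2 difference 0.0024, 95% interval -0.13 to 0.14). Hadh, the hydroxyacyl-CoA dehydrogenase of shorter chains, was at 344 ± 14.5 and 324 ± 22.2 FPKM. Hsd17b10, a dehydrogenase that also serves isoleucine breakdown and mitochondrial tRNA processing, was at 83.5 ± 3.09 and 80.3 ± 4.19 FPKM. Acaa2, the thiolase that releases acetyl-CoA, was at 490.4, 461, 467, 442 and 481 FPKM in the NPRA-/- libraries and at 424, 400.1, 438, 392.2 and 489 FPKM in the NPRA+/+ libraries. For Acaa2, 4 of the 5 NPRA+/+ libraries were below the whole NPRA-/- group, and library 255 was within it. The log2 difference was 0.13 (SE 0.060, limma adjusted p = 0.906), and 0.18 without library 255.

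Unsaturated chains need isomerases and a reductase to bring their double bonds into line. Eci1 was at 139 ± 11.7 and 136 ± 13.9 FPKM and Eci2 at 55.4 ± 0.898 and 52.5 ± 5.21 FPKM. Decr1, the dienoyl-CoA reductase, was at 93.9 ± 4.44 and 86.1 ± 9.45 FPKM (log2 difference 0.13, SE 0.072, limma adjusted p = 0.906). In all 3 genes library 230 was the lowest of the 10 and library 255 the highest.

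Electrons leave the dehydrogenases through the flavoprotein Etfa and Etfb and its ubiquinone oxidoreductase Etfdh. The subunit mRNAs were at 301 ± 10.2 and 289 ± 15.1 FPKM for Etfa and at 350.3 ± 27.0 and 339.7 ± 27.6 FPKM for Etfb. Etfdh was at 276 ± 9.69 and 262 ± 16.03 FPKM. The ratio of Etfa to Etfb was the narrowest of the 6 ratios, at 0.811 to 0.931 in single libraries, with geometric means of 0.862 and 0.851 (two-sided exact permutation p = 0.667).

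Among the peroxisomal members, Ehhadh and Acaa1a were low and variable. Ehhadh, the bifunctional enzyme, was at 3.32 to 6.34 FPKM and Acaa1a, the peroxisomal thiolase, at 5.75 to 11.7 FPKM, ranges of 1.91-fold and 2.03-fold. Acaa1a had the largest difference towards lower values in the NPRA-/- libraries, at 8.50 ± 2.50 against 9.39 ± 1.71 FPKM (log2 difference -0.15, SE 0.18, limma adjusted p = 0.928). It went from -0.27 without library 217 to -0.042 without library 240. Its paralog Acaa1b was at 0.292 to 1.14 FPKM, and reads could be shared between them. Hsd17b4, the multifunctional enzyme for very long and branched chains, was steadier at 37.5 ± 1.67 and 35.4 ± 1.82 FPKM, with all 5 NPRA-/- libraries above the NPRA+/+ mean.

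Malonyl-CoA control had the member with the largest difference. Mlycd, the decarboxylase that removes malonyl-CoA, was at 27.1, 30.7, 30.4, 24.6 and 29.8 FPKM in the NPRA-/- libraries and at 21.9, 22.0, 24.5, 22.3 and 32.5 FPKM in the NPRA+/+ libraries. In the NPRA+/+ group 4 of 5 libraries lay below every NPRA-/- library, and library 255 lay above every one. The log2 difference was 0.21 (SE 0.11, limma adjusted p = 0.906) and 0.31 without library 255. Acacb, the carboxylase at the outer mitochondrial membrane that dominates in heart, was at 40.7 ± 3.403 and 39.6 ± 2.76 FPKM. Acaca, the carboxylase of lipid synthesis, was at 2.25 ± 0.550 and 2.14 ± 0.242 FPKM.

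Ratios within a library do not depend on how that library was scaled. Acacb exceeded Acaca by a factor of 13.2 to 23.0, with geometric means of 18.5 and 18.6 (two-sided exact permutation p = 0.944). Mlycd over Acacb, removal against synthesis of malonyl-CoA, was 0.715, 0.744, 0.810, 0.602 and 0.649 in the NPRA-/- libraries and 0.504, 0.592, 0.625, 0.602 and 0.785 in the NPRA+/+ libraries. It was above the NPRA+/+ mean in 4 of 5 NPRA-/- libraries, and the groups overlapped (two-sided exact permutation p = 0.198). After adjustment over the 6 ratios all 6 were at p = 0.944 (Benjamini-Hochberg, exact permutation tests, whose smallest raw p is 0.00794).

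**Figure D3:**
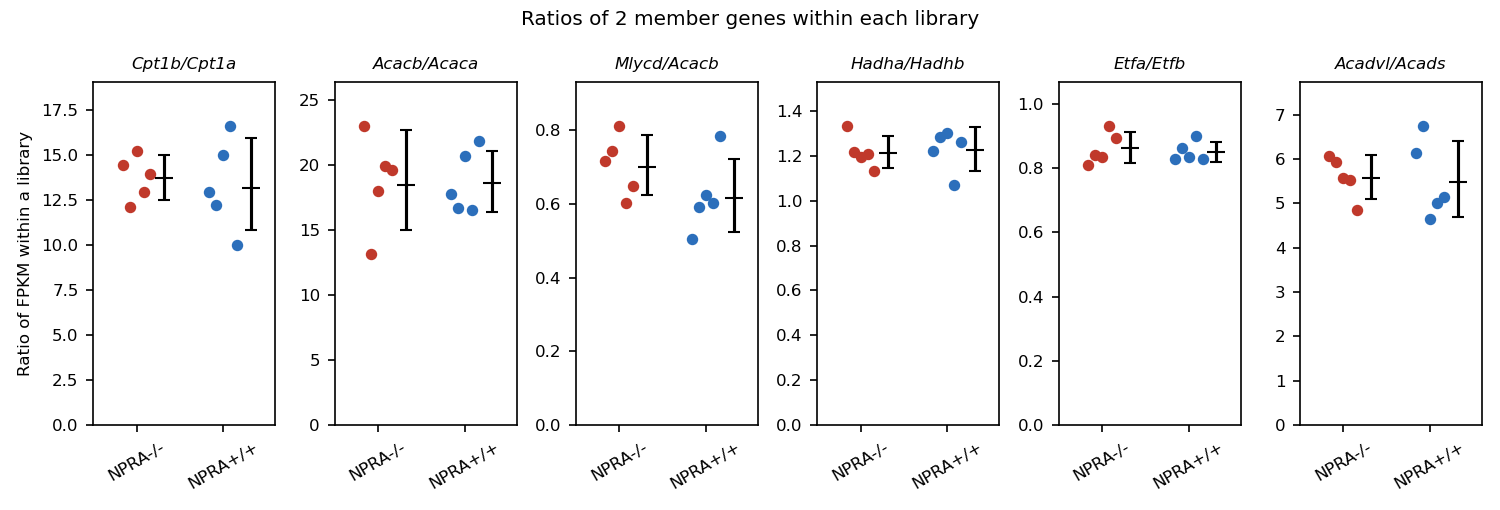
Ratio of FPKM of 2 genes within each library, 1 point per library, with the geometric mean and 1 SD on the log scale as bars beside each group. The groups overlap in all 6 panels; library 255 is the lowest point of Cpt1b/Cpt1a in NPRA+/+ at 10.02 and the highest of Mlycd/Acacb there at 0.785.

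**Figure D4:**
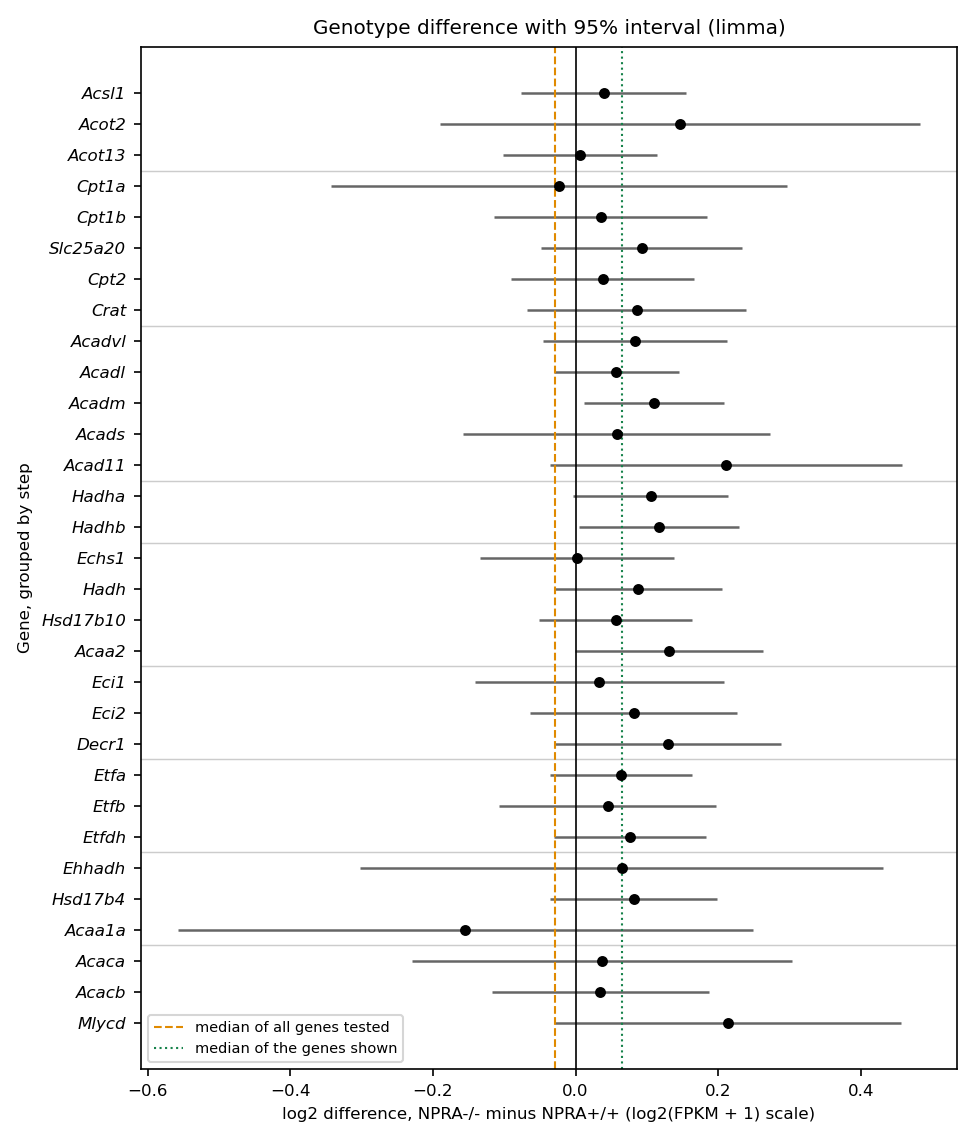
Log2 difference of the 31 tested genes, NPRA-/- minus NPRA+/+ on the log2(FPKM + 1) scale, with 95% intervals from limma; broken lines mark the median of all genes (-0.029) and of the genes shown (0.065). The intervals of Acadm and Hadhb lie just above 0 before any adjustment, and Cpt1a and Acaa1a are the 2 points below 0.

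Spread between libraries was small. The residual SD within groups had a median of 0.10 (log2) over the 31 members, against 0.17 over all genes and 0.10 over the genes with a mean of 50 FPKM or more, so the members were about as steady as other abundant genes. Of the 32 members, 20 varied less than 1.3-fold between the highest and the lowest library and 25 less than 1.5-fold. Wider ranges were found in the low members Acad10, Acaa1a, Ehhadh, Acaca and Cpt1a, and in Acot2 and Acad11.

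Library 255 was looked at further after its values were seen. Its 9 highest members were Acot2, Cpt1a, Cpt2, Echs1, Eci1, Eci2, Decr1, Acaa1a and Mlycd. Pdk4, the pyruvate dehydrogenase kinase that spares glucose when fat is burned, was at 217 FPKM in this library against 85.9 to 105 FPKM in the other 4 of its group. In the NPRA-/- group Pdk4 ran from 98.3 to 312 FPKM, highest in library 227 (176 ± 85.1 against 122 ± 53.7 FPKM, log2 difference 0.49, SE 0.32, limma adjusted p = 0.914). Library 255 was also the 1 with Ucp1 above 0.1 FPKM, and it had the highest Pck1 (5.37 FPKM, against at most 0.495), Cidec (3.601 FPKM, against at most 1.87) and Adipoq (2.22 FPKM, against at most 1.81). Of the same marker list, Thrsp was also highest there (38.2 FPKM). Cfd, Retn and Plin4 were not, at 2.70, 0.4985 and 32.6 FPKM. Their highest values were in libraries 243 (3.51 FPKM), 227 (2.04 FPKM) and 228 (40.6 FPKM). The summed level of the 7 listed adipocyte markers was 85.2 FPKM in library 255 and 58.6 to 75.6 FPKM in the other 9. Plin4 and Thrsp made up most of that sum in every library. Plin1, Lep and Adrb3 were not among the listed genes. Brown adipocyte markers summed to 77.2 FPKM in library 255 and to 54.4 to 95.03 FPKM elsewhere. Ppargc1a and Cidea made up most of that sum in every library. Besides Ucp1, Cidea (25.3 FPKM, against at most 24.1) and Prdm16 (3.82 FPKM, against at most 3.48) of that list were highest in library 255. Dio2 and Ppargc1a were not, with their highest values in libraries 230 (1.97 FPKM) and 227 (71.5 FPKM). The part of fat tissue in the members' levels of this library was not tested.

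Listed transcripts were compared singly, since a gene can keep its sum while its isoforms shift. The 32 members had 67 listed transcripts, of which 61 were tested and 0 called by limma (smallest adjusted p = 0.848), against 0.0283% of 17641 transcripts. At an unadjusted p under 0.05 there were 5 member transcripts, against 5.50% of all. They were Acadm-201, Acad11-207, Hadhb-203, Eci2-207 and Etfb-204.

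Among these, Etfb-204, a minor transcript with 0.308% of the FPKM of Etfb, was the 1 whose groups did not overlap. With means of 1.42 and 0.701 FPKM, it passed the floor of 1 FPKM only through the NPRA-/- group. Its separation is therefore a description and carries no support. It was at 1.45, 1.36, 1.53, 1.48 and 1.29 FPKM in the NPRA-/- libraries and at 0.602, 0.874, 0.507, 0.662 and 0.861 FPKM in the NPRA+/+ libraries (log2 difference 0.51, limma adjusted p = 0.848). Of all transcripts tested, 0.351% separated in this direction and 0.669% in the other. Acad11-207 was at 0 to 2.995 FPKM in the NPRA-/- libraries and at 2.12 to 15.9 FPKM in the NPRA+/+ libraries (log2 difference -1.95, limma adjusted p = 0.879).

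Some splits between isoforms were of an on-off kind within both groups. Acadvl-201 was listed at 0 in libraries 231, 240, 242 and 243 and at 62.0 to 94.2 FPKM in the other 6. The sum of Acadvl ran only from 176 to 219 FPKM, and Acadvl-202 was at 176 to 209 FPKM in those 4 libraries and at 123 to 146 FPKM in the others. The values are estimates that divide shared exons between transcripts, and a 0 may be a failed estimate, so the comparisons by step and the ratios rest on gene sums.

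**Figure D5:**
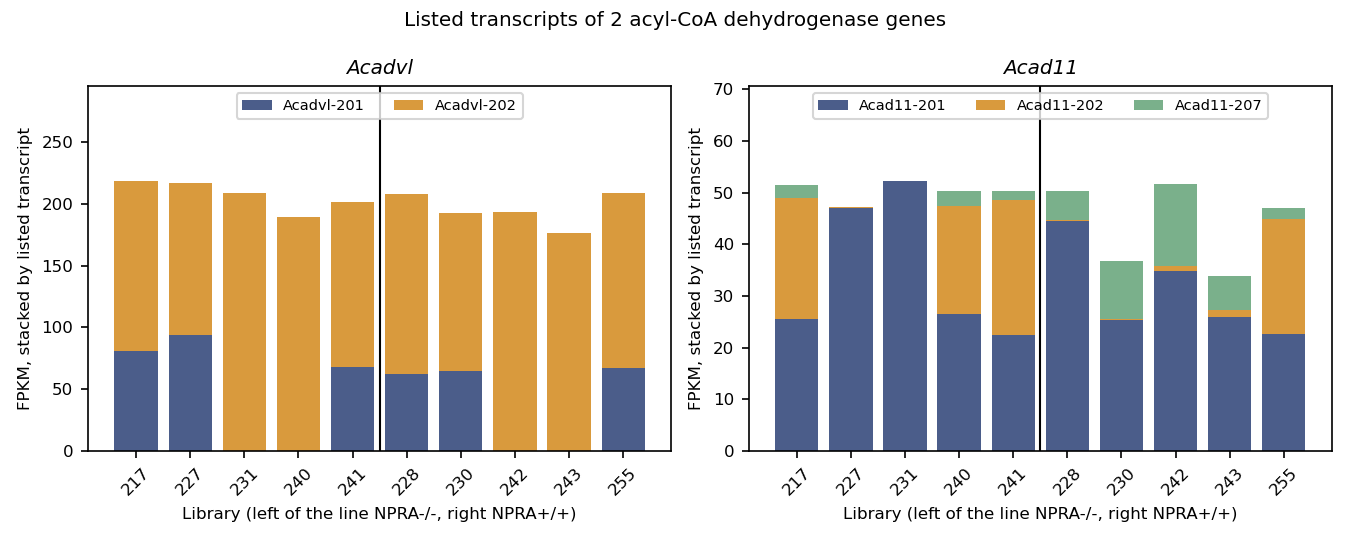
FPKM of the listed transcripts of Acadvl and Acad11, stacked per library, with NPRA-/- left of the line and NPRA+/+ right of it. Acadvl-201 is missing in 2 libraries of each group while the total stays between 176 and 219 FPKM, and Acad11-207 is thickest in libraries 242 and 230, at 15.9 and 11.2 FPKM.

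Other genes of the pathway were read from a separate list. Of 60 further genes of acyl-CoA, peroxisomal and carnitine metabolism, 52 were listed and 50 tested. Of the 50, 31 were higher and 19 lower in the NPRA-/- libraries (median log2 difference 0.031), where 39.4% of all genes were higher. No gene of this list was called by limma. At an unadjusted p under 0.05, where 5.52% of all genes lay, there were 3 of the 50. These were Acot9, another mitochondrial thioesterase (16.4 ± 3.84 against 21.1 ± 1.81 FPKM), Abcd4, an ABC transporter of lysosomes that was listed at 0 in libraries 217, 227 and 231, and Etfbkmt, which methylates Etfb (11.1 ± 2.65 against 8.14 ± 1.98 FPKM), all with an adjusted p of 0.893. Acsl4, an acyl-CoA synthetase with a preference for arachidonic acid, was next, at 3.25 ± 0.274 against 3.87 ± 0.483 FPKM.

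Transcriptional and kinase regulators of the pathway, with companion target genes, gave a similar picture. All 36 genes of that list were tested, and 19 were higher and 17 lower (median log2 difference 0.029), where 39.4% of all genes were higher. Of the 36, 0 were called by limma and 0 had an unadjusted p under 0.05, against 5.52% of all genes. The smallest p belonged to Rxrb, a retinoid X receptor that pairs with PPARs, at 8.01 ± 0.690 against 8.93 ± 0.368 FPKM (adjusted p = 0.906). Tfam, the mitochondrial transcription factor, was at 13.2 ± 1.01 against 12.0 ± 0.818 FPKM, and Nrf1, which binds promoters of nuclear genes for mitochondria, at 3.35 ± 1.14 against 2.53 ± 0.571 FPKM.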

How the data were processed

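Poly(A) RNA of mouse myocardium was sequenced in 10 libraries, strand-specific and from both ends, per the labels' protocols. The submitters' processing notes name cutadapt, HISAT2, StringTie and mm10, without versions or settings. The authors deposited 1 value for each transcript in each library, taken here as FPKM. The table names no unit, and TPM would differ by 1 factor per library. The values sum to 430059 to 453122 per library, the depth is unknown, and precision is the spread between libraries alone. Each of the 22157 transcripts reached 0.5 FPKM as the mean of 1 group or both, so lower transcripts are missing from the sums.

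Identifiers were matched to GENCODE vM21 (22107 matched) and summed per symbol. Members, lists, tests and alternatives were chosen with earlier results of these data known; the text names every member and, per further list, up to 4 genes with the smallest p. limma 3.58.1 in R 4.3.3 (empirical Bayes with trend, no covariate) was fitted on log2(FPKM + 1) over all 10764 genes with a group mean of 1 FPKM or more, with Benjamini-Hochberg adjustment at 0.05; the pseudocount understates differences of low genes. Code was tested on simulated data. Ratios were compared by two-sided exact permutation over libraries. Litters are not labelled, and p-values measure the spread between these libraries. Alternatives were 2 pseudocounts, 2 filters, 4 scalings, 3 forms of the limma fit, the most abundant transcript, and leaving out 1 library or 2. Python 3.11.15, numpy 2.4.6, pandas 2.3.3 and matplotlib 3.10.9 did the remaining work.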

Additional observations from a re-analysis of the deposited data

Results flagged for a closer look

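In 76 groups of 5 libraries, 1 per gene or ratio and genotype, a library was looked for whose gap to its nearest neighbour exceeded Dixon's 95% critical value. Chance marks about 1 in 20 such groups, and 3 were marked. Acot2 was at 46.2 FPKM in NPRA-/- library 217, below the 55.1 to 58.5 FPKM of the other 4. Cpt1b was at 134.9 FPKM in NPRA+/+ library 255, above the 116 to 119 FPKM of the rest of its group. Mlycd was at 32.5 FPKM in the same library, above 21.9 to 24.5 FPKM. In library 255 Ucp1 was at 5.89 FPKM, and the part of fat tissue in these values was not tested.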

How the results depend on the processing

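No member gene was called by limma under any of the 24 alternatives to its fit (smallest adjusted p 0.769). The count of 29 higher members was 25 to 30 when 1 library was left out, and their median log2 difference was 0.050 (without library 230) to 0.10 (without 255). The count was 19 without libraries 230 and 243 together, an alternative chosen after seeing their low values, so that a fall was built in. There the signs turned for Acot2 (-0.0035), Acot13 (-3.1e-04), Cpt2 (-0.0018), Acads (-0.052), Echs1 (-0.046), Eci1 (-0.041), Eci2 (-0.0092), Etfb (-0.042), Ehhadh (-0.069) and Acacb (-0.025). Without libraries 243 and 255 together they turned for Acsl1 (-0.0011) and Cpt1a (0.037) and for the log2 ratio differences of Acacb/Acaca (0.0099) and Acadvl/Acads (-0.050). Rescaling to the same sum turned Acot13 (-0.0069) and Echs1 (-0.010). Median-of-ratios scaling turned Cpt1a (0.0089). Quantile normalization turned Cpt1a (0.0064), Acadl (-0.0082) and Echs1 (-0.0024). The most abundant transcript turned Acaca (-0.11), Acacb/Acaca (0.19) and Acadvl/Acads (-0.058).

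Leaving out 1 library turned the sign of genes with small differences, with ranges of -0.020 to 0.046 for Acot13, -0.10 to 0.10 for Cpt1a, -0.013 to 0.075 for Cpt1b, -0.019 to 0.11 for Acads, -0.025 to 0.039 for Echs1, -0.015 to 0.084 for Eci1, -0.024 to 0.17 for Ehhadh, -0.053 to 0.11 for Acaca and -0.0094 to 0.068 for Acacb. Ratio differences ranged from -0.037 to 0.098 for Acadvl/Acads, -0.091 to 0.11 for Acacb/Acaca, -0.0086 to 0.041 for Etfa/Etfb, -0.061 to 0.014 for Hadha/Hadhb and -0.039 to 0.14 for Cpt1b/Cpt1a. The cause was not tested. No paired analysis was possible because the groups share no replicate numbers. The depth is unknown, so low members such as Acaca, Ehhadh and Acad10 have no counting error here.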
